A study of Mus musculus with 30 samples.

Results

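The R26P mutant effect was compared between the cerebrum and the cerebellum: for each gene, the difference between mutants and controls in cerebellum was set against the same difference in cerebrum. The members are 16 of the 30 arrays in the series, and the genes are 11243 of the 18194 that had a probe set paired with exactly 1 gene. Each gene was read from its probe set with the highest mean, which had to exceed a log2 signal of 4 in at least 3 arrays. The RNA came from brain microvascular fragments, which are pieces of vessel isolated with the cells attached to them, and had been hybridised to Affymetrix arrays. R26P controls were R26P+/0, pdgfb+/+ and carried a human PDGF-B transgene at the Rosa26 locus in a silent state. R26P mutants were Tie2Cre, R26P+/0, pdgfb-/-, so they lacked mouse Pdgfb and had the transgene switched on by Tie2-Cre. Both genotypes were on a mixed C57/SV129 background, and 4 mice per genotype gave 1 array per region. The age stands as 1 year in the titles and as 2 months in the age field of the same samples. Sex labels gave 1 male and 3 female controls, and 2 male and 2 female mutants. The Tie2 promoter is active in endothelium and also in part of the blood cell lineage, and only the mutants carried Cre, so an effect of Cre and an effect of the Pdgfb genotype cannot be told apart. The 6 wild-type arrays (C57/B6/J, Notch3+/+, 2 months, 3 per region) and the 8 arrays of the pdgfbret line are used only where named.

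Platelet-derived growth factor B is released by endothelial cells and binds PDGFR-beta on pericytes, the mural cells that cover brain capillaries. Without enough of it at the vessel wall, pericytes are recruited poorly during development, and brain endothelium then lacks part of the signals that hold the blood-brain barrier closed. Vessels of cerebrum and cerebellum carry the same basic cell types, but the glia, meninges and neurons around them differ, and fragments keep some RNA of those neighbours.

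Signals are log2 values, so 1 unit is a 2-fold change, and the number of arrays limits the precision. The mouse Pdgfb probe set read 12.73, 12.86, 12.51 and 12.53 in the cerebrum of controls 1 to 4, and 4.73, 6.45, 8.01 and 4.73 in mutants 1 to 4. In cerebellum it read 12.41, 12.52, 12.41 and 12.05 in controls, and 4.73, 4.86, 7.51 and 5.02 in mutants. The groups did not overlap in either region, and mutant 3 was the highest mutant in both. That mouse also stood apart in a second way. Its arrays of cerebrum and cerebellum correlated at 0.9991, the highest value among all arrays, where the next pair of arrays reached 0.9979. Only 54 genes differed by more than 2-fold between its regions, against 277 to 641 genes in the other 7 mice. Strong signal of growth hormone (Gh), a product of the pituitary, above 8, was found on 5 arrays: the cerebrum of controls 2 and 3, the cerebrum of mutants 2 and 3, and the cerebellum of mutant 3. The mean of 8 pituitary markers ranged from 3.14 to 3.38 in control cerebellum, and from 3.19 to 10.76 in mutant cerebellum, where mutant 3 was the highest. Whether both of its arrays hold RNA of their labelled region alone was not tested. The differences below are therefore also given without mutant 3. The labels do not say that arrays of the same number came from 1 mouse. The sex labels of both regions match, and after removal of group means the arrays of a number correlated at 0.479 to 0.84, each best with its own partner.

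A difference of the mutant effect between the 2 regions was shown for few genes, and for most genes the measured difference was small. In cerebrum 2097 genes (18.7% of those tested) passed an adjusted p of 0.05 by limma, with 939 higher (8.35%) and 1158 lower (10.3%) in mutants. In cerebellum 1758 genes (15.6%) passed, with 780 higher (6.94%) and 978 lower (8.7%). Of these, 1256 passed in both regions, all in the same direction, and the regions come from the same mice. The test of the difference itself passed for 29 genes, or 0.258% of those tested. The cerebellar effect was higher than the cerebral one in 11 (0.0978%) and lower in 18 (0.16%). In all 29 the within-mouse differences of the 4 controls and the 4 mutants did not overlap, as in 681 genes (6.06%) overall. At an unadjusted p under 0.05 there were 1082 genes, 9.62% of those tested. Among the 841 genes past the threshold in cerebrum alone, 14 had a difference between regions that passed, and among the 502 in cerebellum alone it was 6. Passing in 1 region alone was therefore seldom accompanied by a shown difference between the regions. The median size of the difference was 1.26 in the 29 genes and 0.119 in all genes. For 90.5% of genes the 95% interval of the difference lay within 1 log2 unit of 0. Without mutant 3, 13 genes passed (0.116%) and 9 of them were among the 29. All 29 kept their direction without that mouse, with an unadjusted p under 0.05 and adjusted p values of at most 0.109.

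**Figure D1:**
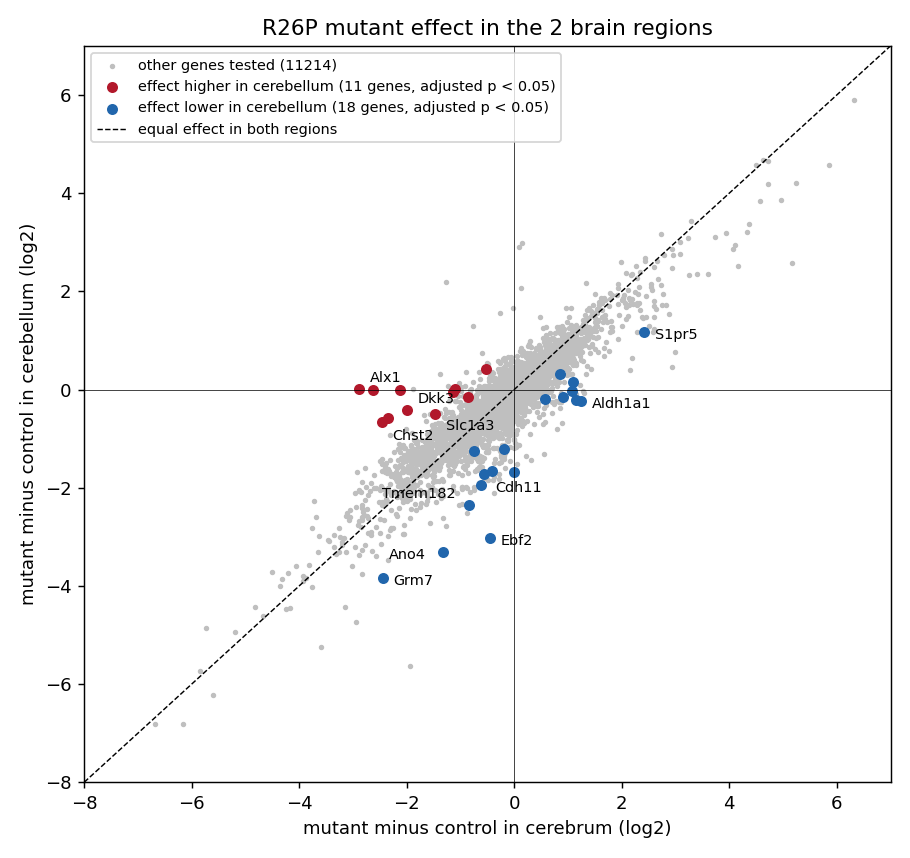
Mutant minus control in cerebrum (x axis, log2) against the same in cerebellum (y axis, log2) for 11243 genes, 1 point per gene. The dashed line marks an equal effect. Most points follow the line, the 11 genes with a higher cerebellar effect (red) lie above it, and the 18 with a lower one (blue) lie below it.

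The 11 genes with a higher cerebellar effect shared 1 form. In all of them the mutant mean in cerebrum was below the control mean, and in 10 the cerebral fall passed its own test. Choosing genes by a higher cerebellar effect favours this form, and where cerebellar signal stood at the lowest value it nearly fixes it. They hold proteoglycans of the nervous system (Cspg5, Ncan), enzymes that decorate glycans (St6galnac5, Chst2), a glial glutamate transporter (Slc1a3) and a homeobox transcription factor (Alx1). All 11 also had a lower mean in the cerebellum than in the cerebrum of wild-type arrays, which were not in the fit. The filter on low signal did use those arrays. Over all genes, 55.3% had a wild-type difference of the sign opposite to their difference of effects.

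The difference with the smallest p was that of Dkk3, a secreted protein of the Dickkopf family. Dkk3 read 6.87, 7.09, 6.44 and 6.21 in the cerebrum of controls 1 to 4, and 4.57, 4.63, 4.83 and 4.57 in mutants. In cerebellum it read 5.34, 5.31, 4.89 and 4.57 in controls, and 4.44, 4.68, 4.87 and 4.48 in mutants. The groups were separate in cerebrum and overlapped in cerebellum. The cerebral effect was -2.00 (SE 0.19) and the cerebellar effect -0.41 (SE 0.19), which gave a difference of 1.59 (SE 0.09, adjusted p = 5.2e-04, limma). Without mutant 3 it was 1.57 (SE 0.10, adjusted p = 0.0020). With the probe sets of Dkk3 averaged, the difference was 1.06 and no longer passed (adjusted p = 0.052). The 4 cerebral arrays of mutants thus stood at the level of the mutant cerebellum.

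Alx1, a homeobox factor of mesenchyme, gave the largest difference. Its cerebral signal was 4.92, 5.18, 4.48 and 6.26 in controls, and 2.30, 2.22, 2.38 and 2.38 in mutants. In cerebellum all 8 arrays read between 2.17 and 2.18, close to the lowest value of the arrays, 2.16. The difference was 2.89 (SE 0.33, adjusted p = 0.015), and without mutant 3 it was 2.91 (SE 0.38, adjusted p = 0.052). A cerebellar fall of Alx1 could not have been seen, because the signal there was already at the bottom in controls.

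Cspg5, a chondroitin sulfate proteoglycan of neural cells, and St6galnac5, a sialyltransferase that acts on gangliosides, showed the same form. Cspg5 read 5.38, 4.23, 3.95 and 5.69 in control cerebrum, and all 12 other arrays stood at 2.18. St6galnac5 read 4.45, 3.94, 4.73 and 4.01 in control cerebrum, and all 12 others stood at 2.16. Each gene was thus measured in 1 of the 4 groups. The differences were 2.63 (SE 0.36, adjusted p = 0.042) for Cspg5 and 2.12 (SE 0.17, adjusted p = 0.0032) for St6galnac5. In both genes all 4 mutants had a within-mouse difference of 0. The SD of that difference in controls was 0.85 for Cspg5 and 0.37 for St6galnac5 (n = 4). The SE and p pool both genotypes and so understate the spread in controls. Ncan encodes neurocan, a proteoglycan of the brain's extracellular matrix. It was faint throughout, at 3.47, 3.24, 3.37 and 3.51 in control cerebrum and between 2.20 and 2.27 on the 12 other arrays, with a difference of 1.09 (SE 0.08, adjusted p = 0.0032). Without mutant 3 the adjusted p was 0.097 for Cspg5 and 0.012 for both St6galnac5 and Ncan.

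Chst2, a sulfotransferase for N-acetylglucosamine, lay above the lowest value in both regions, though at or below 4 on all 8 cerebellar arrays. Its cerebral signal was 5.05, 5.33, 6.03 and 5.20 in controls and 3.14, 3.00, 2.90 and 2.71 in mutants, and its cerebellar signal was 2.76, 3.21, 3.52 and 3.53 in controls and 2.74, 2.71, 2.22 and 2.74 in mutants. The groups were separate in both regions, by a wide margin in cerebrum and narrowly in cerebellum. Chst2 fell by 2.46 in cerebrum (adjusted p = 3.4e-04), the cerebellar effect was -0.65 (adjusted p = 0.067), and the difference was 1.81 (SE 0.20, adjusted p = 0.015). Without mutant 3 it was 1.93 (adjusted p = 0.025). With all probe sets of a gene averaged, the difference was 0.72 for Chst2 and 0.39 for Ncan, against 1.81 and 1.09 in the brightest probe set. Pantr1 is a long noncoding RNA encoded beside Pou3f3. It fell in both regions, by 2.35 in cerebrum and 0.57 in cerebellum, with a difference of 1.77 (SE 0.22, adjusted p = 0.024), and of 1.74 (adjusted p = 0.080) without mutant 3. Its control means were 6.84 ± 0.25 and 4.32 ± 0.09 (SD, n = 4) in the respective regions.

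Slc1a3 encodes a glutamate transporter of astrocytes and was the single member of the 30 gene lists described below whose difference passed. Its cerebral signal was 9.65, 9.21, 9.69 and 9.58 in controls and 8.31, 8.10, 7.09 and 8.74 in mutants. Its cerebellar signal was 7.69, 7.48, 8.11 and 7.63 in controls and 7.60, 7.50, 6.30 and 7.55 in mutants. The cerebral groups were separate and the cerebellar ones overlapped, with mutant 3 lowest in both regions. In cerebrum Slc1a3 fell by 1.47 (SE 0.33), the cerebellar effect was -0.49 (SE 0.30), and the difference was 0.98 (SE 0.15, adjusted p = 0.0497). Without mutant 3 the difference was 0.97 (adjusted p = 0.109), and with the probe sets of Slc1a3 averaged it was 0.52 (adjusted p = 0.111).

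The remaining genes of this direction had smaller differences. Trim9, a ubiquitin ligase of brain, differed by 1.10 (SE 0.17) and was seen above 2.43 in control cerebrum alone. Mn1, a transcriptional co-regulator, was bright in all groups, at 9.68 ± 0.17 in control cerebrum, 8.82 ± 0.17 in mutant cerebrum, 9.47 ± 0.15 in control cerebellum and 9.31 ± 0.20 in mutant cerebellum (SD, n = 4), and its difference was 0.70 (SE 0.10). Htra3, a secreted serine protease, had effects of -0.52 in cerebrum and 0.42 in cerebellum, neither past the threshold, and a difference of 0.93 (SE 0.14). These 3 genes lay at the edge of the threshold, with an adjusted p of 0.0497. Leaving out mutant 3 gave differences of 1.14 for Trim9 and 0.85 for Htra3 (adjusted p = 0.099 for both), and 0.75 for Mn1 (adjusted p = 0.080). Just outside it were Asb4 (0.67, adjusted p = 0.051) and Morrbid (-1.32, adjusted p = 0.067).

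**Figure D2:**
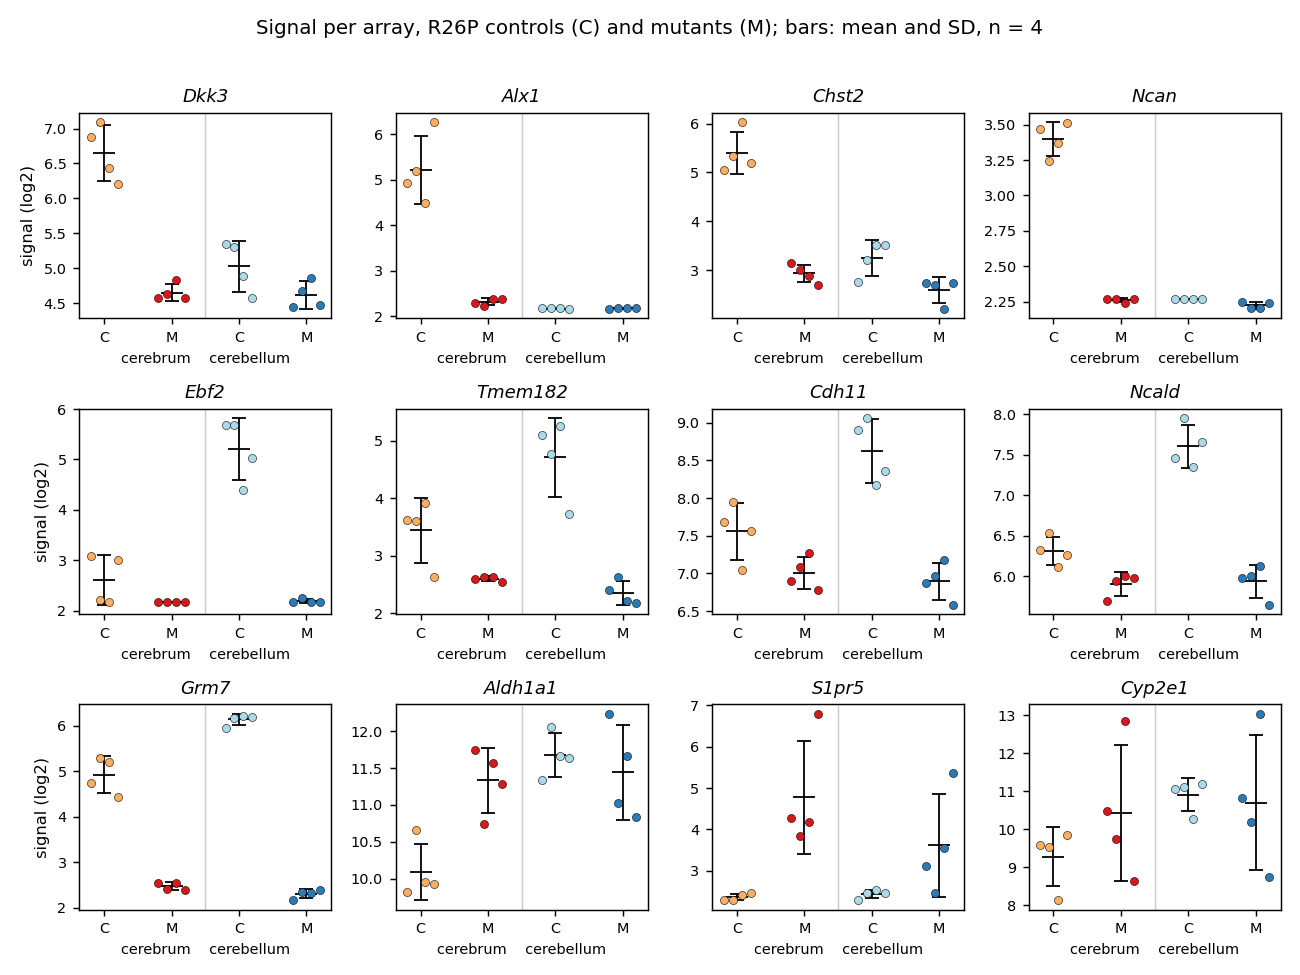
Log2 signal on each of the 16 arrays for 12 of the 29 genes, by region, in controls (C) and mutants (M). Points are arrays, and bars give the mean and SD of 4. Dkk3, Alx1, Chst2 and Ncan are high in control cerebrum, Ebf2, Tmem182, Cdh11, Ncald and Grm7 in control cerebellum, and Aldh1a1 is low in control cerebrum.

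Among the 18 genes with a lower cerebellar effect, 10 had a fall in cerebellum that passed the test and was larger than the change in cerebrum. The group holds cell-surface and signalling genes (Cdh11, Grm7, Ano4, St8sia1), a transcription factor (Ebf2), and genes better known from neurons (Ncald, Uchl1). Ebf2 had the largest difference. Ebf2 belongs to the early B-cell factor family and is known in cerebellar development and in mesenchymal cells. Its cerebellar signal was 5.69, 5.69, 4.40 and 5.03 in controls and 2.16, 2.24, 2.16 and 2.16 in mutants. Its cerebral signal was 3.08, 2.21, 2.16 and 3.00 in controls and 2.16 in all 4 mutants. In cerebellum Ebf2 fell by 3.02 (SE 0.28), the cerebral effect was -0.45 (SE 0.22), and the difference was -2.57 (SE 0.28, adjusted p = 0.015). Without mutant 3 it was -2.56 (adjusted p = 0.049).

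Cdh11, a cadherin of mesenchymal cells, passed in 20 of 22 other ways of processing, more often than any other of the 29 genes. Its cerebellar signal was 8.90, 9.06, 8.17 and 8.36 in controls and 6.87, 6.96, 7.18 and 6.59 in mutants. In cerebrum it read 7.68, 7.94, 7.04 and 7.56 in controls and 6.90, 7.09, 7.26 and 6.77 in mutants. The cerebellar groups were separate by about 1 unit, and in cerebrum control 3 lay within the mutant range. In cerebellum Cdh11 fell by 1.73 (SE 0.22), the cerebral effect was -0.55 (SE 0.20, adjusted p = 0.091), and the difference was -1.17 (SE 0.10, adjusted p = 0.0050). It was -1.18 (adjusted p = 0.022) without mutant 3. With the probe sets of Cdh11 averaged, the difference was -0.66 (adjusted p = 0.047).

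Ncald, a calcium sensor of neurons, fell in both regions. In cerebellum it read 7.46, 7.95, 7.35 and 7.65 in controls and between 5.65 and 6.12 in mutants. In cerebrum it read 6.32, 6.53, 6.12 and 6.26 in controls and 5.69, 5.94, 6.01 and 5.98 in mutants. Groups were separate in both regions, and the gap was wider in cerebellum. Ncald fell by 1.67 in cerebellum and dropped by 0.40 in cerebrum, and the difference was -1.26 (SE 0.14, adjusted p = 0.015, and 0.0485 without mutant 3). With the probe sets of Ncald averaged it was -0.43 (adjusted p = 0.052). Tmem182, a membrane protein with a role in muscle cells, fell by 2.36 in cerebellum, against -0.85 (adjusted p = 0.053) in cerebrum. Its difference was -1.51 (SE 0.12, adjusted p = 0.0032, and 0.012 without mutant 3).

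Grm7, a metabotropic glutamate receptor, fell in both regions. In cerebellum it read 5.95, 6.18, 6.22 and 6.20 in controls and 2.16, 2.35, 2.31 and 2.38 in mutants. In cerebrum it read 4.74, 5.30, 5.20 and 4.44 in controls and 2.55, 2.40, 2.55 and 2.39 in mutants. Mutants of both regions thus stood near the lowest value of the arrays, and the difference followed the level in controls. Grm7 fell by 3.84 (SE 0.09) and dropped by 2.45 (SE 0.19), and the difference was -1.39 (SE 0.19, adjusted p = 0.042). Ano4, a protein of the anoctamin family, had the same form, with effects of -3.30 and -1.33 and a difference of -1.97 (SE 0.28, adjusted p = 0.044). St8sia1, the enzyme that makes ganglioside GD3, was seen in control cerebellum alone, at 3.57, 3.55, 4.45 and 3.79, and read 2.16 to 2.18 on the 12 other arrays. Its difference was -1.67 (SE 0.18, adjusted p = 0.015). All 4 mutants had a within-mouse difference of 0 in St8sia1, and controls had an SD of 0.41. This SE and p also understate the spread in controls. Without mutant 3 the adjusted p was 0.099 for Grm7 and Ano4 and 0.052 for St8sia1.

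Rasl11a, a small GTPase, and Uchl1, a deubiquitinating enzyme of neurons, fell in cerebellum, with effects of -1.94 and -1.21. Their differences were -1.31 (SE 0.14, adjusted p = 0.015) for Rasl11a and -1.03 (SE 0.15, adjusted p = 0.0497) for Uchl1. Septin4, a septin of the cytoskeleton, was bright everywhere and fell in both regions, by 1.26 in cerebellum and 0.74 in cerebrum. Its difference of -0.51 (SE 0.08, adjusted p = 0.0497) was the smallest among the 29 genes. With mutant 3 left out, the differences were -1.31 (adjusted p = 0.052) for Rasl11a, -1.03 (adjusted p = 0.100) for Uchl1 and -0.52 (adjusted p = 0.109) for Septin4.

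Since Alx1 and Ebf2 are transcription factors, the promoters of the 29 genes were searched for the letters that such factors are known to recognise. RefSeq promoters of 300 bases (GRCm38.p6, 250 before to 50 after the start) were at hand for 20 of the 29. The homeobox core TAATTA occurred in 1 of the 20, Slc1a3, and in 6.12% of the promoters of 27025 genes. The palindrome of the early B-cell factor family, TCCC and GGGA with any 2 bases between them, occurred in 1 of the 20, Grm7, and in 1.06% of all. Both strands were searched. The Slc1a3 promoter lies at chr15:8710758-8711057 on the minus strand, with the motif at bases 274 to 279. The Grm7 promoter lies at chr6:110645262-110645561 on the plus strand, with the motif at bases 57 to 66. Both are shown 5′ to 3′, with the matching letters in capitals. A match describes the letters and does not show a binding site.
Slc1a3: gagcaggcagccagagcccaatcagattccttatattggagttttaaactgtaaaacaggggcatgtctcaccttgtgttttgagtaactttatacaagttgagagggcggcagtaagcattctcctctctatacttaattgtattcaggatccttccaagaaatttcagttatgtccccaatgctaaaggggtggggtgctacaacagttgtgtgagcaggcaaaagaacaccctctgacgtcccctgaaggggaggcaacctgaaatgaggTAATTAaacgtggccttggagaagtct
Grm7: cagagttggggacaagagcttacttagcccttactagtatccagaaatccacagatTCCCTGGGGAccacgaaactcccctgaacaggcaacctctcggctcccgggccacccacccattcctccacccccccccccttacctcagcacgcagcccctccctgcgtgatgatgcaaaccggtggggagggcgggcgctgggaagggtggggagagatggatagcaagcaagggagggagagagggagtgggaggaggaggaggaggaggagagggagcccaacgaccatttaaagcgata

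The other 8 genes with a lower cerebellar effect had a mutant mean above the control mean in cerebrum, with a smaller change in cerebellum, and in 5 the cerebral rise passed the test. Aldh1a1, a retinaldehyde dehydrogenase, was the brightest of those 5. Signals in cerebrum were 9.82, 10.66, 9.96 and 9.93 in controls and 11.74, 10.74, 11.57 and 11.28 in mutants. Signals in cerebellum were 11.33, 12.06, 11.66 and 11.64 in controls and 12.24, 11.02, 11.67 and 10.84 in mutants. The cerebral groups were separate, though control 2 and mutant 2 differed by little, and the cerebellar groups overlapped. The cerebral rise was 1.24 (SE 0.26, adjusted p = 0.015), and the difference was -1.48 (SE 0.19, adjusted p = 0.032). Without mutant 3 it was -1.47 (adjusted p = 0.080).

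S1pr5, a receptor for sphingosine-1-phosphate, was near the lowest value in all 8 control arrays, between 2.29 and 2.54. In mutants it read 4.27, 3.83, 4.19 and 6.80 in cerebrum and 3.10, 2.45, 3.54 and 5.36 in cerebellum. Every mutant was higher in cerebrum than in cerebellum, and mutant 4 was the highest in both. The cerebral rise was 2.41 (SE 0.60), the cerebellar effect was 1.18 (SE 0.55, adjusted p = 0.19), and the difference was -1.23 (SE 0.17, adjusted p = 0.042). Without mutant 3 it was -1.40 (SE 0.10, adjusted p = 0.0037). Gla, the lysosomal alpha-galactosidase A, had a cerebral rise of 0.91 and a difference of -1.07 (SE 0.14, adjusted p = 0.031). Gstm2, a glutathione transferase, had a cerebral rise of 0.85 and a difference of -0.52 (SE 0.08, adjusted p = 0.046), and Fuom, a fucose mutarotase, a rise of 0.57 and a difference of -0.75 (SE 0.11, adjusted p = 0.043). The differences without mutant 3 were -1.03 for Gla (adjusted p = 0.080), -0.52 for Gstm2 (adjusted p = 0.100) and -0.73 for Fuom (adjusted p = 0.099).

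In the last 3 genes no effect passed within a region, and the mutants differed widely from each other. Cyp2e1, a cytochrome P450, read 10.49, 9.75, 12.84 and 8.63 in the cerebrum of mutants 1 to 4, and 10.82, 10.20, 13.04 and 8.75 in their cerebellum. In controls it read 9.59, 9.54, 8.14 and 9.86 in cerebrum and 11.05, 11.12, 10.28 and 11.19 in cerebellum. All 4 controls were over 1 unit higher in cerebellum, and the mutants were higher there by at most 0.45. The difference was -1.36 (SE 0.17, adjusted p = 0.031). Ifi209, an interferon-activated gene, and Lyz1, a lysozyme, were highest in mutant 4 in both regions, at 7.02 and 7.07 for Ifi209 and 14.27 and 14.08 for Lyz1. Their differences were -1.12 (SE 0.17, adjusted p = 0.0497) and -0.94 (SE 0.13, adjusted p = 0.044). Lyz1 has a near-identical neighbour, Lyz2, whose RNA may bind the same probes. The Lyz2 probe set gave -1.03 (SE 0.18, adjusted p = 0.080). With the probe sets of Lyz1 averaged, its difference was -0.61 (adjusted p = 0.052). Leaving out mutant 3 gave differences of -1.33 for Cyp2e1 (adjusted p = 0.080), -1.12 for Ifi209 (0.100), -0.98 for Lyz1 (0.084) and -1.12 for Lyz2 (0.099).

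The 29 genes were then described by their regional difference within each genotype, cerebellum minus cerebrum. In 27 of the 29 the regional difference was larger in controls than in mutants, against 62.7% of all genes, a count that the choice of these genes helps to fix. The exceptions were Mn1 and S1pr5. In Ebf2 the regional difference was 2.59 ± 0.64 in controls and 0.02 ± 0.04 in mutants, and in Dkk3 it was -1.63 ± 0.11 and -0.03 ± 0.09 (SD, n = 4). The 6 wild-type arrays were not in the fit, but they entered the choice of probe set and the filter on low signal. Their regional difference had the sign opposite to the difference of effects in 28 of the 29 genes, all but S1pr5, against 55.3% of all genes and 69.6% of genes at an unadjusted p under 0.05. Of the 29 genes, 26 exceeded 4 in at least 3 of the 16 R26P arrays, and 25 of these 26 had the opposite sign, against 55.2% of the 10794 genes that did so. Trim9, Ncan and St8sia1 passed the filter through other arrays. Alx1, Chst2, Cspg5, St6galnac5, Ebf2, Tmem182 and Rasl11a exceeded 4 only in controls of the region where they were high. Their mutants were low in both regions, so the difference of effects largely restates the regional difference of controls. The same holds for Grm7 and Ano4, whose mutants read at most 2.55 and 2.21, and for Trim9, Ncan and St8sia1. The counts of 28 and 25 include such genes. For such genes the wild-type sign describes regional expression and is no separate support for a region-dependent effect. The median wild-type regional difference was -1.02 in the 11 genes, 0.54 in the 18 and -0.0378 in all genes. It passed an adjusted p of 0.05 in 9 of the 29 genes, where 238 of 11243 did so in all.

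**Figure D3:**
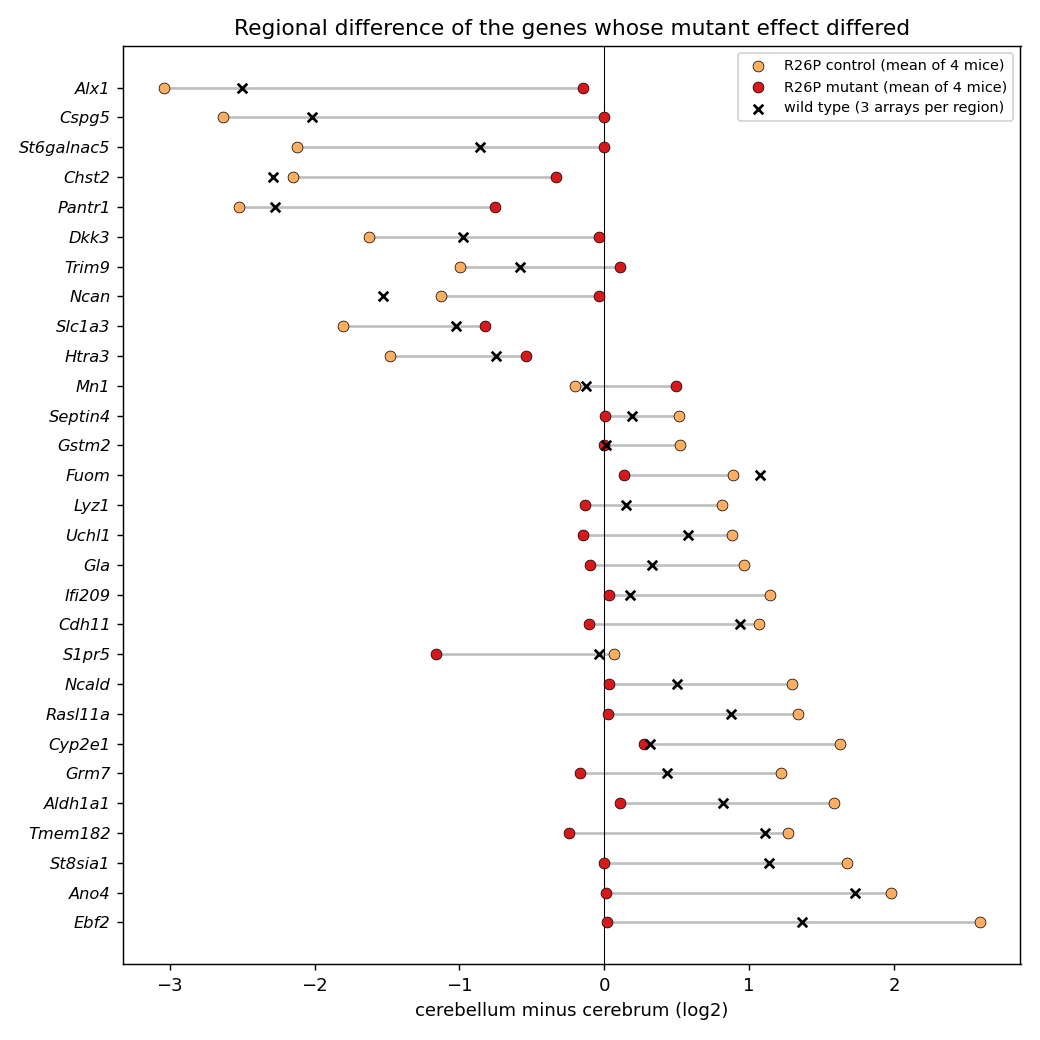
Cerebellum minus cerebrum (log2) for the 29 genes, as means of 4 R26P controls (orange), 4 R26P mutants (red) and the 3 wild-type arrays per region (crosses). Controls and wild type lie on the same side of 0 for all genes but S1pr5, and most mutant means lie near 0.

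Single wild-type arrays of the 2 regions did not overlap in 20 of the 29 genes, against 21.7% of all genes. Dkk3 read 6.84, 6.57 and 6.80 in wild-type cerebrum and 5.81, 5.66 and 5.82 in cerebellum. Ebf2 read 2.78, 2.26 and 2.26 in cerebrum and 4.00, 3.63 and 3.75 in cerebellum. Cdh11 read 7.83, 8.36 and 8.00 in cerebrum and 8.82, 9.27 and 8.90 in cerebellum. In these 3 genes the wild-type regions did not overlap, and in Grm7, Gstm2, Cyp2e1 and Lyz1 they did. Wild-type arrays may have been normalized apart from the others, so their levels are not set against those of R26P arrays. Their lowest value was 2.17, against 2.16 on the 24 arrays of the other 2 models.

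The pdgfbret line, in which Pdgfb lacks the motif that retains it at the cell surface, offered a description from other mice (C57/B6/J, 4 pdgfbret/ret against 4 pdgfbret/+, 7 to 10 months, region not labelled). The mutant mean was lower in 10 of the 11 genes with a higher cerebellar effect (median -0.484) and higher in 12 of the 18 others (median 0.606). Those 12 were all 8 genes with a larger cerebral rise and 4 of the 10 with a larger cerebellar fall. Of the other 6, 4 were lower and 2 did not differ at all. These counts take the sign of a difference of means without a test, and several differences were close to 0. Among those counted as lower were St6galnac5 (-0.014), Trim9 (-0.058) and Septin4 (-0.032). Among those counted as higher were Rasl11a (0.0055) and Tmem182 (0.086). Cdh11, whose R26P mutant mean was lower in both regions, was higher by 2.54 in the ret/ret mutants. Over all genes the median was 0.013, and 47.7% were lower.

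Low signal limits the sizes above. In 6 of the 29 genes all 8 cerebellar arrays lay at or below 4, and in 6 all 8 cerebral arrays did. Both held for 2 genes, Trim9 and Ncan. A change at such levels is poorly measured. Where mutants stood at the lowest value in both regions, the pooled SE and p also understate the spread in controls. Where a gene was required to exceed 4 in at least 3 arrays of each region, 7 genes passed: Aldh1a1, Cdh11, Cyp2e1, Dkk3, Gla, Ncald and Pantr1.

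Genes known to differ between regions were next chosen on the wild-type arrays alone and read in R26P mice. Of the wild-type genes, 200 were higher in cerebellum (1.78%) and 38 higher in cerebrum (0.338%). The 38 cerebral genes had a median difference of effects of 0.41, positive in 32 (84.2%), against a median of -0.0085 and 48.0% positive in all genes. Among the 29 are 4 of them, Chst2, Pantr1, Dkk3 and Ncan, the last of which passed the filter through arrays other than those of R26P mice. In cerebrum 10 of the 38 fell (26.3%), and in cerebellum 1 did (2.63%), beside 10.3% and 8.7% of all genes. Genes chosen as lower in wild-type cerebellum can have little room to fall there. Chst2 and Ncan, for example, lay at or below 4 on all 8 cerebellar R26P arrays. Their median regional difference within a mouse was -0.51, -0.57, -0.93 and -0.71 in controls 1 to 4, and -0.12, -0.20, -0.04 and -0.09 in mutants 1 to 4. The genotypes did not overlap in this median. Without mutant 3 the median difference of effects was 0.36, positive in 28.

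The 200 cerebellar genes moved less. Their median difference of effects was -0.20, negative in 129 (64.5%), and 5 passed the test as lower. In cerebrum 33.0% of the 200 fell and in cerebellum 35.5%. Their median regional difference was 1.43, 1.04, 0.67 and 0.99 in controls 1 to 4, and 1.21, 0.98, 0.19 and 0.58 in mutants 1 to 4. Controls and mutants overlapped, with mutant 3 far below the rest. Without mutant 3 the median difference of effects was -0.023, and 107 of the 200 were negative, so little of the shift remained without that mouse. Mutant 4, at 0.58, also lay below every control. For this median, leaving out other mice was not tried.

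**Figure D4:**
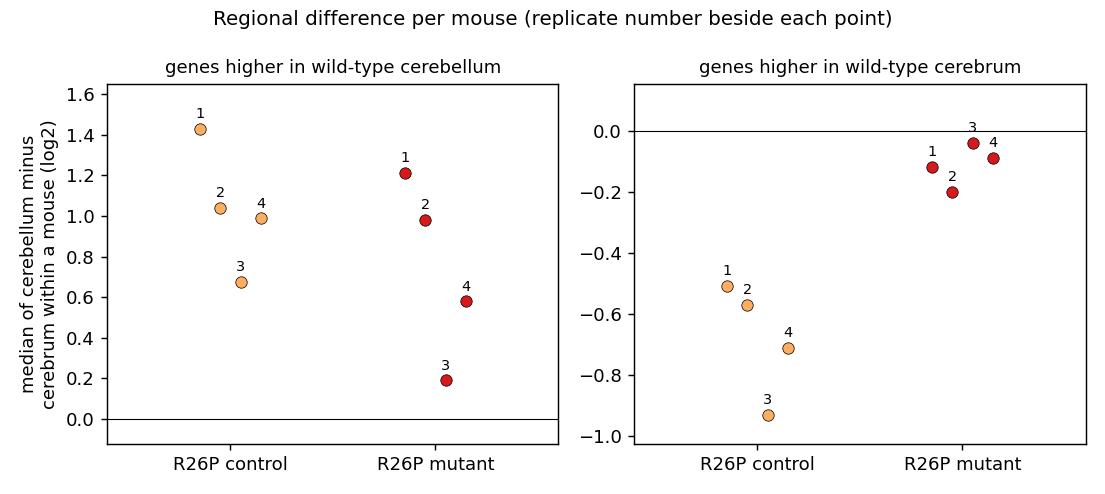
Median of cerebellum minus cerebrum (log2) in each of the 8 R26P mice, over the 200 genes higher in wild-type cerebellum (left) and the 38 higher in wild-type cerebrum (right). Points are mice, numbered by replicate. The cerebral genes separate controls (-0.93 to -0.51) from mutants (-0.20 to -0.04), and the cerebellar genes do not.

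Pericyte genes had the largest median effect of the gene lists in both regions. Fewer cells of a type and less RNA per cell cannot be told apart in such samples. Of 21 pericyte genes measured, 20 fell in cerebrum and 20 in cerebellum, with median effects of -3.26 and -3.31. Over all genes 10.3% fell in cerebrum and 8.7% in cerebellum. By limma 0 of the 21 differed between regions, with 5 at an unadjusted p under 0.05, against 9.62% of all genes. Pdgfrb, the receptor through which PDGF-B recruits pericytes, read 12.80, 12.93, 12.82 and 12.76 in control cerebrum and 10.12, 9.95, 10.41 and 9.29 in mutant cerebrum. In cerebellum it read 13.34, 13.26, 13.47 and 13.43 in controls and 11.07, 11.14, 10.50 and 10.05 in mutants. The groups lay far apart in both regions, with effects of -2.89 and -2.68. The difference was 0.20, with a 95% interval from -0.29 to 0.70 (adjusted p = 0.79), so a moderate difference in either direction is not excluded. Kcnj8 and Abcc9, which form the potassium channel of pericytes, differed by 0.07 (-0.53 to 0.67) and 0.40 (-0.31 to 1.10). With mutant 3 left out, the differences were 0.42 for Pdgfrb, 0.32 for Kcnj8 and 0.73 for Abcc9 (adjusted p = 0.44, 0.67 and 0.14).

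Atp13a5, a pericyte transport ATPase, fell by 5.73 in cerebrum and 4.86 in cerebellum, and Cspg4, the proteoglycan NG2, by 3.64 and 2.98. Their differences, 0.87 (SE 0.28, adjusted p = 0.37) and 0.66 (SE 0.24, adjusted p = 0.42), did not pass. Without mutant 3 they were 1.15 (adjusted p = 0.084) and 0.81 (adjusted p = 0.38). Over the pericyte list the difference was positive in 15 of 21, against 48.0% of all genes. Its median was 0.24, and 0.42 without mutant 3.

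The smooth muscle list had the same sign throughout. The difference was positive in 15 of 15 genes, against 48.0% of all genes, with a median of 0.45, and 0.58 without mutant 3. In cerebrum 13 of the 15 fell (median -1.57) and in cerebellum 7 did (median -1.09), beside 10.3% and 8.7% of all genes. In limma 0 of the 15 differences passed, with 2 at an unadjusted p under 0.05, against 9.62% of all genes. The smooth muscle calponin gene Cnn1 fell in cerebrum by 2.15, and its cerebellar effect was -1.12 (adjusted p = 0.32). Pln encodes phospholamban, which restrains the calcium pump, and fell by 2.34 and 1.62. Myl9, a myosin light chain, read 14.74, 13.95, 14.26 and 14.57 in control cerebrum, 12.47, 12.93, 13.40 and 12.57 in mutant cerebrum, 14.83, 14.65, 14.28 and 14.47 in control cerebellum and 13.22, 14.13, 13.63 and 12.89 in mutant cerebellum. It fell by 1.54 and 1.09, with a difference of 0.45 (95% interval -0.12 to 1.02, adjusted p = 0.60), and of 0.58 (adjusted p = 0.58) without mutant 3. Within mice, the median regional difference of the list was -0.02, 0.28, -0.14 and -0.19 in controls and 0.57, 1.21, 0.18 and 0.05 in mutants, so the genotypes overlapped through control 2.

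**Figure D5:**
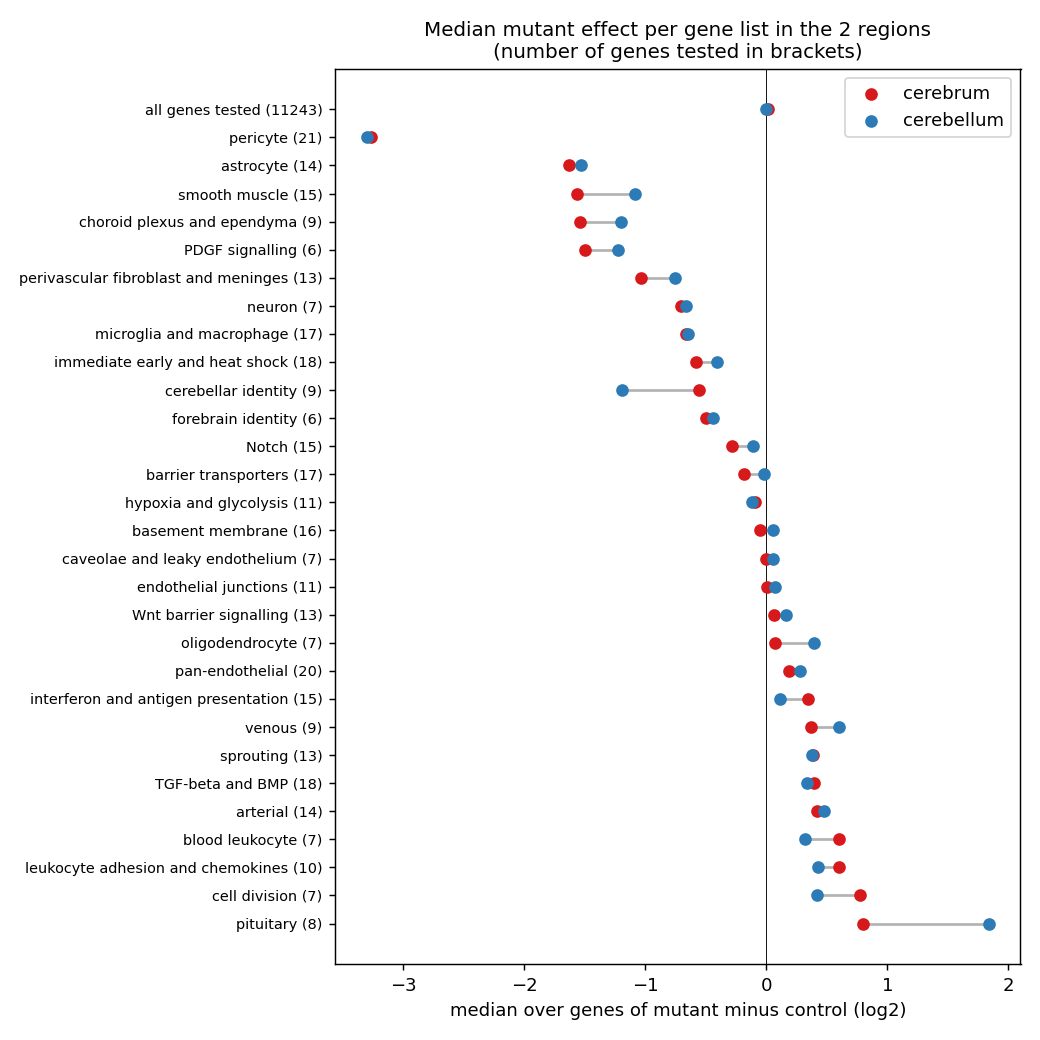
Median mutant effect (log2, x axis) of each gene list in cerebrum (red) and cerebellum (blue), with the number of genes tested in brackets. Lists are ordered by the cerebral median. The 2 regions lie close together in most lists, and smooth muscle, the cerebellar identity genes and the pituitary genes lie farthest apart. A gap between 2 medians is not the median of the differences, which was -0.0069 for the cerebellar identity genes.

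In the endothelial lists the differences between regions were small, and mostly positive. The difference was positive in 17 of 20 pan-endothelial genes (median 0.15), in 15 of 17 barrier transporters (0.14) and in 11 of 11 junction genes (0.12). Over all genes 48.0% were positive. By limma 0 genes passed in these lists, with 4, 6 and 2 respectively at an unadjusted p under 0.05, against 9.62% of all genes. The medians without mutant 3 were 0.16, 0.13 and 0.14. In cerebrum 5 barrier transporters and 3 junction genes fell, against 1 gene of both lists together in cerebellum. The shares of all genes were 10.3% and 8.7%. Cldn5, the main claudin of the barrier, differed by 0.00 (95% interval -0.18 to 0.18), and Slc2a1, the glucose transporter, by 0.02 (-0.17 to 0.20). In these bright genes a difference above 0.2 lay outside the interval. Mfsd2a, a lipid transporter that endothelium needs for a closed barrier, read 13.08, 13.47, 13.28 and 13.21 in control cerebrum and 12.35, 11.74, 12.43 and 10.49 in mutants, and 13.04, 13.52, 13.59 and 13.19 in control cerebellum and 13.02, 12.90, 12.66 and 11.74 in mutants. It fell in cerebrum by 1.51 (adjusted p = 0.036), while the cerebellar effect was -0.76 (adjusted p = 0.11). The difference, 0.75 (SE 0.22, adjusted p = 0.30), did not pass, and it was 0.95 (adjusted p = 0.105) without mutant 3.

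Angpt2 and Bmp6, both secreted factors made by endothelium, rose in both regions. Angpt2, a ligand that opposes Tie2 activation, rose by 3.09 in cerebrum and 2.77 in cerebellum, with a difference of -0.32 (95% interval -0.85 to 0.22), and of -0.43 without mutant 3. Bmp6 read 9.60, 9.53, 8.90 and 9.16 in control cerebrum and 13.57, 13.72, 13.66 and 13.71 in mutants, and 10.87, 10.31, 9.21 and 9.74 in control cerebellum and 13.27, 13.11, 13.62 and 13.65 in mutants. Mutants reached much the same level in both regions, and 3 of 4 controls were over 0.5 higher in cerebellum. Bmp6 rose by 4.37 and 3.38, and its difference of -0.99 (SE 0.22, adjusted p = 0.16) did not pass, nor did -1.06 (adjusted p = 0.20) without mutant 3. In the TGF-beta and BMP list 8 of 18 genes rose in each region, beside 8.35% of all genes in cerebrum and 6.94% in cerebellum. In limma 0 differences of this list passed, with 4 at an unadjusted p under 0.05, against 9.62% of all genes. The Notch list had a positive difference in 12 of 15 genes (median 0.18, and 0.21 without mutant 3), against 48.0% of all genes. Notch3, a receptor of mural cells, stood at 0.28 (SE 0.23), and 0.47 without mutant 3.

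Other cell types contribute RNA to the fragments. Of 14 astrocyte genes, 10 fell in cerebrum and 9 in cerebellum, with medians of -1.63 and -1.53, beside 10.3% and 8.7% of all genes. The difference was positive in 12 (median 0.24, and 0.35 without mutant 3), against 48.0% of all genes. Slc1a2, the second astrocyte glutamate transporter, fell by 2.62 and 2.00, and its difference of 0.62 (SE 0.49, adjusted p = 0.70) did not pass. It was 0.43 (adjusted p = 0.85) without mutant 3. In 2 of the 14 the difference was negative, and Aqp4 was 1 of them. Aqp4 read 7.53, 7.68, 7.09 and 7.06 in control cerebrum and 5.43, 5.52, 5.55 and 5.52 in mutants. In cerebellum it read 8.93, 9.37, 8.74 and 8.72 in controls and 7.84, 6.75, 5.83 and 5.52 in mutants. Its mean fall was thus larger in cerebellum, and the difference did not pass in limma. Astrocyte genes thus fell in cerebrum beside Slc1a3, Ncan and Cspg5, and their part in those falls was not tested.

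The mean over 9 cerebellar identity genes ranged from 5.07 to 5.17 in control cerebellum and from 3.90 to 4.34 in mutant cerebellum. In cerebrum it ranged from 4.26 to 4.62 in controls and from 3.48 to 3.84 in mutants. The median effects of the list were -0.55 in cerebrum and -1.19 in cerebellum. Its median difference of effects was -0.0069, with and without mutant 3. Granule cells of the cerebellum make the receptor subunit Gabra6, which read 4.69, 3.70, 4.96 and 4.83 in control cerebellum and 3.85, 2.93, 2.21 and 3.14 in mutants, and 2.16 in the cerebrum of all mice but mutant 3, at 2.39. Both arrays of mutant 3 thus lay close to the lowest value. Gabra6 fell in cerebellum by 1.51, and its difference of -1.57 (SE 0.41, adjusted p = 0.24) did not pass, nor did -1.24 (adjusted p = 0.35) without mutant 3. Over 7 neuron genes the list mean ranged from 5.60 to 5.80 in control cerebellum and from 4.62 to 5.13 in mutant cerebellum. In cerebrum it ranged from 5.24 to 5.94 in controls and from 4.32 to 5.45 in mutants. The median effects of the neuron list were similar, at -0.705 in cerebrum and -0.662 in cerebellum. Here limma gave 0 differences past the threshold and 0 at an unadjusted p under 0.05. How far this neighbouring RNA contributed to Ncald, Uchl1 and Grm7 was not tested.

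Lists of interferon response, leukocytes and cell division had mostly negative differences. The difference was negative in 13 of 15 interferon and antigen presentation genes (median -0.17), in 6 of 7 blood leukocyte genes (-0.50) and in 7 of 7 cell division genes (-0.25). By limma 0 genes of these lists passed, with 4, 4 and 0 respectively at an unadjusted p under 0.05. Over all genes 9.62% had such a p, and the difference was positive in 48.0%. The medians without mutant 3 were -0.12, -0.58 and -0.27. Medians were also negative for neuron genes (-0.19), sprouting (-0.12), hypoxia and glycolysis (-0.075), leukocyte adhesion (-0.11) and microglia and macrophages (-0.045), and 11 of 18 TGF-beta and BMP genes and 6 of 9 cerebellar identity genes were negative. For neuron genes the median was 0.23 without mutant 3. Ptprc, the leukocyte antigen CD45, read 10.34, 10.51, 10.64 and 12.52 in mutant cerebrum and 10.16, 9.63, 10.54 and 12.38 in mutant cerebellum, with mutant 4 highest in both. Its difference was -0.50 (SE 0.22, adjusted p = 0.51), and -0.58 (adjusted p = 0.56) without mutant 3. Mutant 4 was also the highest in Ifi209, Lyz1 and S1pr5, and the part of blood cells in those genes was not tested. The choroid plexus and ependyma list was positive in 9 of 9 genes (median 0.38, and 0.77 without mutant 3), with 0 past the threshold in limma and 0 at an unadjusted p under 0.05.

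Leaving out mutant 3 also let 4 further genes pass. Frzb, a secreted Wnt antagonist, had then the smallest p of all. It read 5.52, 5.30, 3.33 and 6.48 in the cerebrum of mutants 1 to 4, 2.68, 2.50, 2.62 and 3.91 in their cerebellum, and 2.16 to 2.19 on all control arrays. Mutant 3 had the smallest step between its regions. The difference was -2.23 (SE 0.43, adjusted p = 0.11) with that mouse and -2.73 (SE 0.10, adjusted p = 7.1e-05) without it. Slc22a14, of the organic ion transporter family, gave -2.48 (adjusted p = 0.25) and -3.23 (adjusted p = 0.0020), Btg2, an antiproliferative gene, 0.41 (adjusted p = 0.71) and 0.79 (adjusted p = 0.025), and Sntb1, a syntrophin, 0.76 (adjusted p = 0.44) and 1.08 (adjusted p = 0.044).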

How the data were processed

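The deposited values are log2 signals that the authors made with GCRMA 2.6.0 under R 2.4.1, per the submitters' processing notes. About 36.3% to 37% of the values of an R26P array stand at a lowest value that the arrays share. They were used as deposited. Of 45101 probe sets, 34958 were paired with 1 gene, 932 with several and 9211 with none. Linear models were fitted and tested with limma 3.58.1 (lmFit, then eBayes) under R 4.3.3, two-sided, with Benjamini-Hochberg adjustment over 11243 genes. The difference between regions was fitted on 16 arrays with the mouse (genotype and replicate number) as a block, and each regional effect on 8 arrays without a block. Samples of a group are labelled as biological replicates. Arrays of 1 number correlated at 0.479 to 0.84 after removal of group means, so numbers pair the regions, and between genotypes they do not. Named genes were those past an adjusted p of 0.05 without overlap between genotypes, up to 15 in each direction, list members (up to 3 past the threshold, or the 2 brightest), and a fixed set. The text selects among them. Septin4, Gstm2, Fuom and the genes of the last paragraph of results, and Cnn1, Pln, Slc1a2, Aqp4, Asb4 and Morrbid, were taken after their values were seen. The members and lists were chosen with earlier results of these data known. The test of the difference was tried on simulated data with 50 changed genes at each size. It recovered 48%, 84%, 92% and 100% of changes of 0.5, 1, 2 and 4 log2, and 2.99% of its calls were false. Changes were planted only in genes with a mean above 6, with noise of equal spread in all groups and no lowest value. The rates were not measured for dimmer genes or genes at the lowest value, as many that passed were. Alternatives changed the filter, probe set choice, prior, normalization, a floor on signal, the block, sex and pituitary terms, and the mice included. Figures were drawn with matplotlib 3.10.9. No protein sequences were used here.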

Additional observations from a re-analysis of the deposited data

Results flagged for a closer look

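Among 88 groups of 4 arrays or mice checked, 11 had 1 array whose gap to the nearest other was larger, as a share of the group's range, than Dixon's critical value, and chance gives this in about 1 in 20 groups. Mutant 3 accounted for 4 of them. In its cerebellum Pdgfb was high at 7.508, while Chst2 was low at 2.217 and Slc1a3 at 6.296, and in its cerebrum Ncan was low at 2.243. Mutant 4 was high in cerebrum for S1pr5 (6.80) and Lyz2 (13.11). Control 2 was high in cerebrum for Aldh1a1 (10.66) and low in cerebellum for Ncan (2.27), there by less than 0.01. Ebf2 was high in the cerebellum of mutant 2 (2.242), within 0.1 of the lowest value of the arrays. In control cerebellum Grm7 was low in control 1 (5.952) and Cyp2e1 in control 3 (10.28).

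The tested difference between regions passed for 29 genes. It was positive for Alx1 (2.89), Cspg5 (2.63), St6galnac5 (2.12), Chst2 (1.81), Pantr1 (1.77), Dkk3 (1.59), Trim9 (1.10), Ncan (1.09), Slc1a3 (0.98), Htra3 (0.93) and Mn1 (0.70). It was negative for Ebf2 (-2.57), Ano4 (-1.97), St8sia1 (-1.67), Tmem182 (-1.51), Aldh1a1 (-1.48), Grm7 (-1.39), Cyp2e1 (-1.36) and Rasl11a (-1.31). It was also negative for Ncald (-1.26), S1pr5 (-1.23), Cdh11 (-1.17), Ifi209 (-1.12), Gla (-1.07), Uchl1 (-1.03), Lyz1 (-0.94), Fuom (-0.75), Gstm2 (-0.52) and Septin4 (-0.51).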

How the results depend on the processing

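The count of genes whose effect differed between regions moved with the processing, and the causes were not tested unless named. Against 29 genes, there were 7 with no filter, 4 with a mean above 6, 10 with probe sets averaged per gene, 18 of 21065 single probe sets, 16 with signals floored at 4 (7 shared) and 19 floored at 6 (4 shared). A trended robust prior gave 36, renewed quantile normalization 22, a region-by-sex term 12 and a pituitary term 32. Leaving out 1 mouse gave 6 to 29 genes, lowest without mutant 2. Without the replicate block 13 passed, and with the mouse as a random block 45. Chosen after seeing the data, a filter of 3 arrays above 4 in each region gave 7, and 1 over the 16 arrays gave 25. Without the 4 mice that had high Gh signal limma called 0, with 869 genes at an unadjusted p under 0.05 and 2 mice per genotype. Over the 18 to 22 alternatives each gene could be tested in, Cdh11 passed in 20, Dkk3 in 18, Ncald, St6galnac5 and Tmem182 in 16, Ncan in 15 and Htra3 in 1, and 0 genes passed in all. With a floor 10 of the 29 came to 0 and had no direction, and Ifi209 was 0.0123 with a floor at 6. No other of the 29 changed sign under these alternatives. Among genes that did not pass, Lyz2 passed under 1 alternative.

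The 2097 genes in cerebrum became 1390 with no filter, 1278 with the replicate block, 237 without the arrays of high Gh and 1387 to 1945 with 1 mouse left out, lowest without control 1. The 1758 in cerebellum became 1081 with no filter, 1117 without the array of high Gh, which is mutant 3, and 1117 to 1572 with 1 mouse left out. Without control 1 there were 1143. Quantile normalization moved the cerebral split to 1211 higher and 1121 lower. The 238 wild-type genes became 58 with no filter, 153 and 25 with floors at 4 and 6, 135 with the replicate block and 12 to 159 with 1 array left out, lowest without cerebellum 3.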
